A study of Mus musculus with 12 samples.

Results

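Pmaip1, which encodes the BH3-only protein Noxa, was described together with its relatives of the Bcl2 family in mouse ovaries. The genes were chosen by symbol: a list of 10 family members was drawn up because Pmaip1 had stood among the strongest increases of these arrays, and every probe set that the platform annotation pairs with 1 of those symbols was taken. Of the 10 genes, 9 were measured, by 15 of the 16376 probe sets of the table; the annotation used here pairs no probe set with Bax, which was therefore not analysed here. The values that chose Pmaip1 are its own differences between tumor and control ovaries, so its levels are given as a description and were not tested. The 8 relatives, with 14 probe sets, were listed by family and were tested.

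The series holds 12 ovary samples of female mice aged 23 weeks, taken at diestrus, a stage of the estrous cycle, and each was profiled on 1 array. The 6 controls carried Pgrcre/+ alone and had no tumor. The other ovaries carried Pgrcre/+ together with PgrBLsL/+, and 3 of them were labelled tumor stage I and 3 stage II. In the Pgrcre line Cre recombinase is made under control of the progesterone receptor gene Pgr, and all groups carry it; the labels do not describe the PgrBLsL allele further, while the series title names constitutive expression of progesterone receptor isoforms. All ovaries with PgrBLsL, and no control, had a tumor, so allele and tumor cannot be told apart against controls. The labels call the samples biological replicates and do not say whether ovaries were pooled.

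Bcl2 family proteins decide at the outer mitochondrial membrane whether a cell starts apoptosis. The survival proteins Bcl-2 (Bcl2), Bcl-xL (Bcl2l1) and Mcl-1 (Mcl1) hold the pore formers Bak (Bak1) and Bax in check, and BH3-only proteins such as Noxa (Pmaip1), Bim (Bcl2l11), Bid and Bad relieve that check. Bok is a further pore former, which the survival proteins restrain little or not at all. Noxa is a target of p53 that binds chiefly Mcl-1 and promotes its breakdown, whereas Bim binds all the main survival proteins and Bad binds Bcl-2 and Bcl-xL. In the ovary this balance sets the fate of granulosa cells during follicle atresia and of oocytes, and Bok was named for the ovary.

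Values are expression values as the authors deposited them, taken as log2, 1 per probe set and array. They ran over the table from 2.69 to 14.44. No background level was measured, so folds of low genes are ratios of deposited values. Array medians lay between 7.09 and 7.15, and correlations between arrays over all probe sets ran from 0.967 to 0.997. Markers of the ovary were present: Inha, the granulosa cell inhibin subunit, lay between 13.33 and 13.59 in controls and Zp3, a zona pellucida protein of oocytes, between 9.07 and 9.59. Pgr itself ran from 3.74 to 4.60 in controls, while stage I reached 9.05 to 9.28 and stage II reached 9.78 to 10.09. Over all probe sets, limma called 983 higher and 806 lower in stage II against stage I at an adjusted p under 0.05, against 957 higher and 1215 lower after quantile normalization.

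Pmaip1 (probe set 1418203_at) separated the 3 groups on every array. In controls it lay at 4.60, 5.38, 4.66, 4.41, 4.88 and 5.72 in replicates 1 to 6. In stage I it lay at 10.10, 8.42 and 7.97, and in stage II at 11.26, 11.39 and 10.99. The order of the groups was thus control, stage I, stage II with no overlap between neighbours, and stage I replicate 1 stood between the other stage I arrays and stage II.

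The controls had a mean Pmaip1 value of 4.94 ± 0.51 (SD, n = 6), the stage I arrays of 8.83 ± 1.12 (n = 3) and the stage II arrays of 11.22 ± 0.20 (n = 3). Stage I exceeded control by 3.89 ± 0.40 (SE) on the log2 scale, a 14.8-fold difference, and stage II exceeded control by 6.27 ± 0.40 (SE), a 77.4-fold difference. Stage II exceeded stage I by 2.39 ± 0.46 (SE), or 5.23-fold. Among all 16376 probe sets these were the 12th, 13th and 37th largest increases. With each array left out in turn, the difference of stage I from control ran from 3.25 to 4.31, with the lowest value without stage I replicate 1, and that of stage II from 6.17 to 6.43. In bulk tissue, more cells with a transcript and more transcript per cell cannot be told apart.

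**Figure D1:**
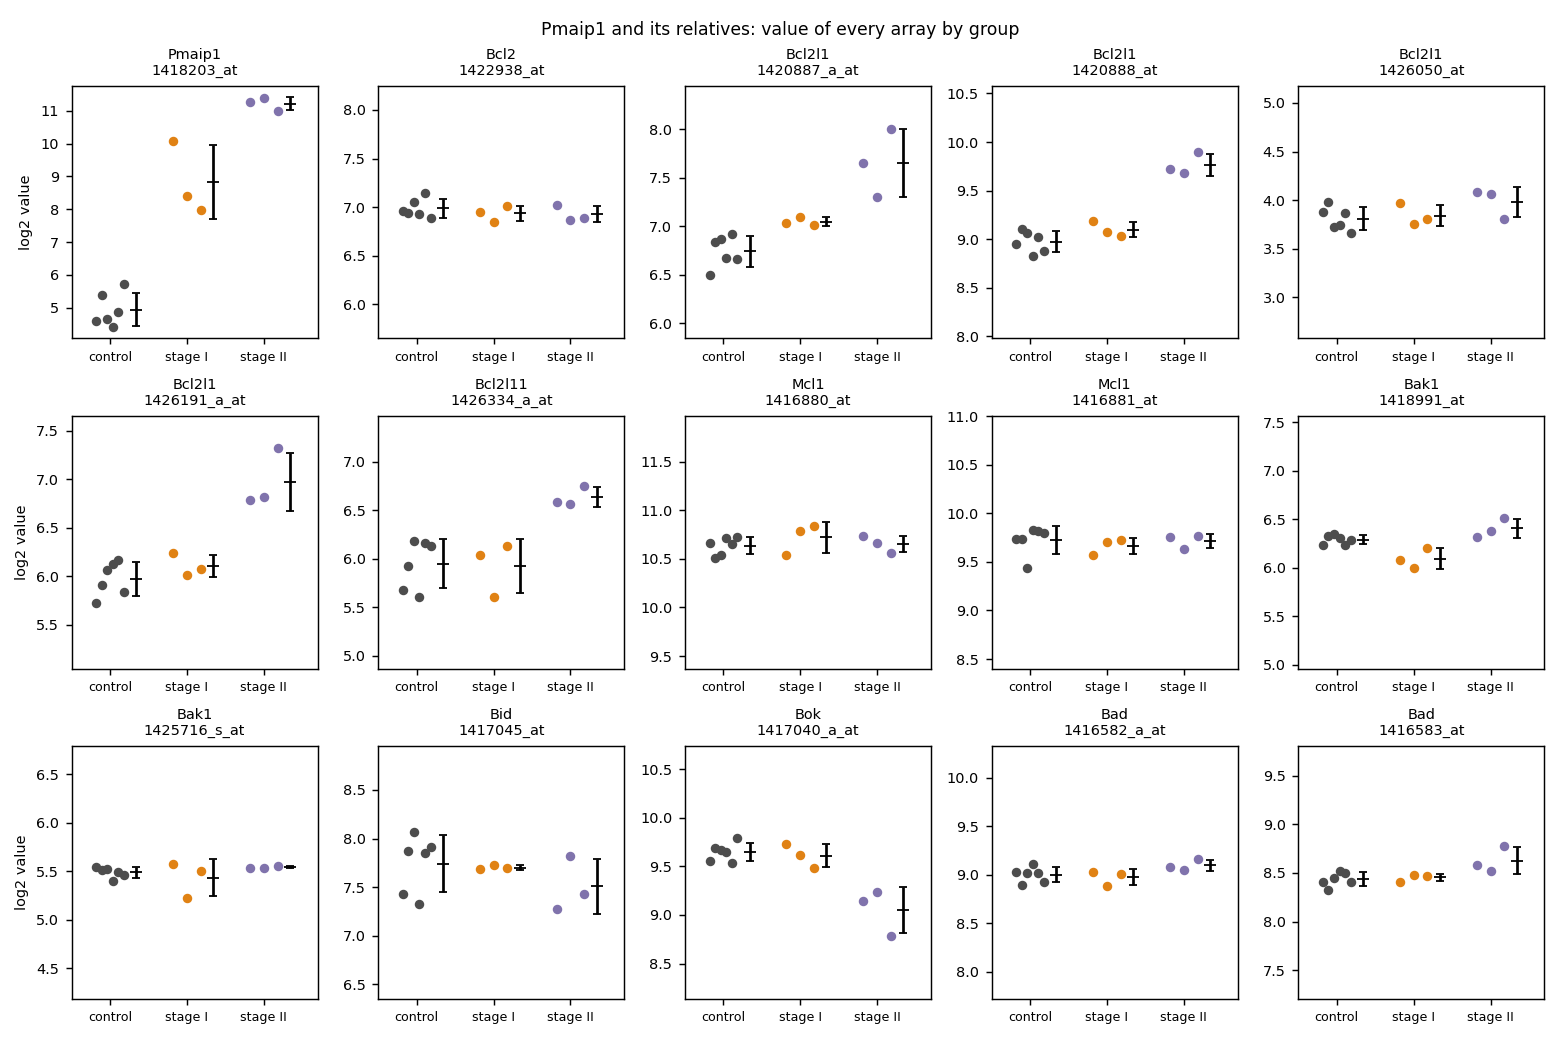
Log2 value of each array (points) in control (6 arrays), stage I (3) and stage II (3) for the 15 probe sets, with the group mean and SD as a black mark beside the points. The axis of Pmaip1 spans more than the others, which all span the same range; Pmaip1 rises from about 4.41 to 5.72 in controls to 10.99 to 11.39 in stage II, Bcl2l1 and Bcl2l11 are higher and Bok is lower in stage II.

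The genes whose profile was most like that of Pmaip1 were found from the deviations of each array from the control mean, as the root mean square difference over the 12 arrays. The nearest was Tspan8, a tetraspanin of epithelia, at 0.35 on the log2 scale, with a stage II difference from control of 5.84. Ly6d, a lipid-anchored surface antigen, followed at 0.57, Svs6, a seminal vesicle secretory protein, at 0.70, and Defb8, a beta-defensin, at 0.79. Vwce followed at 0.89 and Pgr at 0.92. The first 5 of these genes had their highest stage I value in replicate 1, which the choice by likeness over these same arrays favours, while Pgr differed little among the stage I arrays. The relatives lay far from this profile, at 3.28 to 3.99, and the median over all probe sets was 3.74.

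**Figure D2:**
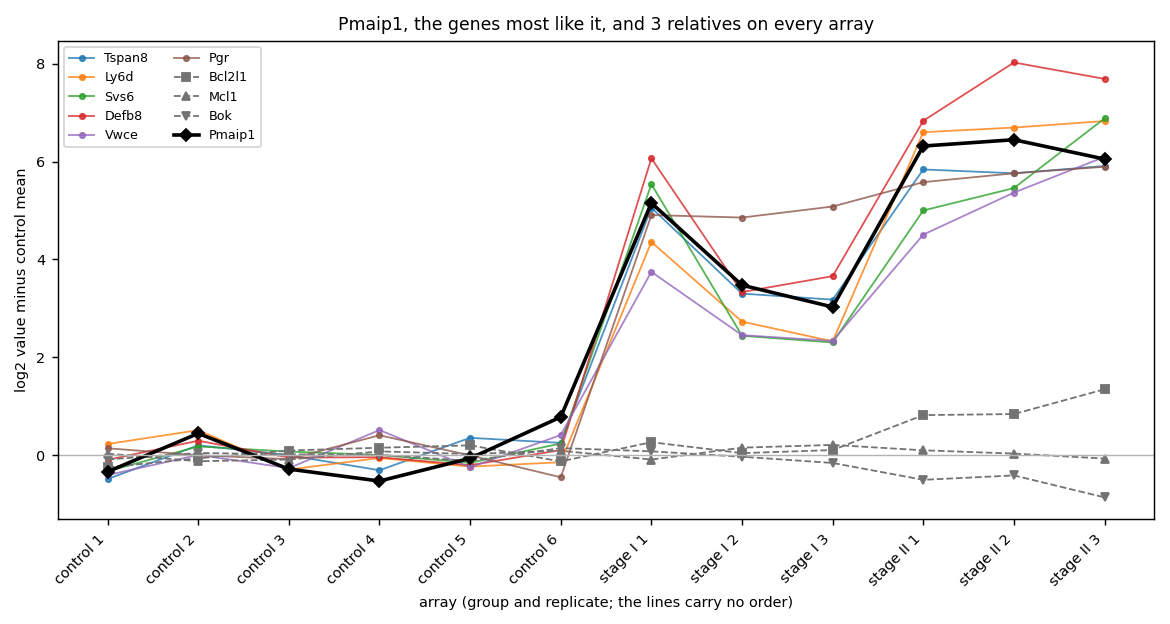
Deviation of the log2 value from the control mean (y axis) on each of the 12 arrays (x axis) for Pmaip1 (black), the 6 genes nearest to it (coloured) and single probe sets of Bcl2l1 (1426191_a_at), Mcl1 (1416880_at) and Bok (grey, dashed). Pmaip1 deviates by 3.03 to 5.15 in stage I and by 6.05 to 6.45 in stage II, while the 3 relatives stay between -0.86 and 1.35.

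The relatives differed far less between groups, and their calls came from Bcl2l1, Bcl2l11, Bok and Bak1. In stage I against control limma called 0 of their 14 probe sets, beside 0.195% of all probe sets. At an unadjusted p under 0.05 there were 2 of the 14, beside 1020 of all 16376. In stage II against control 5 of 14 probe sets passed (35.7%), from 3 of 8 genes, beside 19.4% of all probe sets. Of these, 4 were higher, beside 9.25% of all, and 1 was lower, beside 10.1% of all. Their median log2 difference was 0.10, against -0.01 over all probe sets. In stage II against stage I 6 of 14 passed (42.9%), beside 10.9% of all probe sets, 5 higher (6% of all) and 1 lower (4.92% of all). These shares have no test of their own: the 4 probe sets of Bcl2l1 share a gene, and both stages share their controls.

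**Figure D3:**
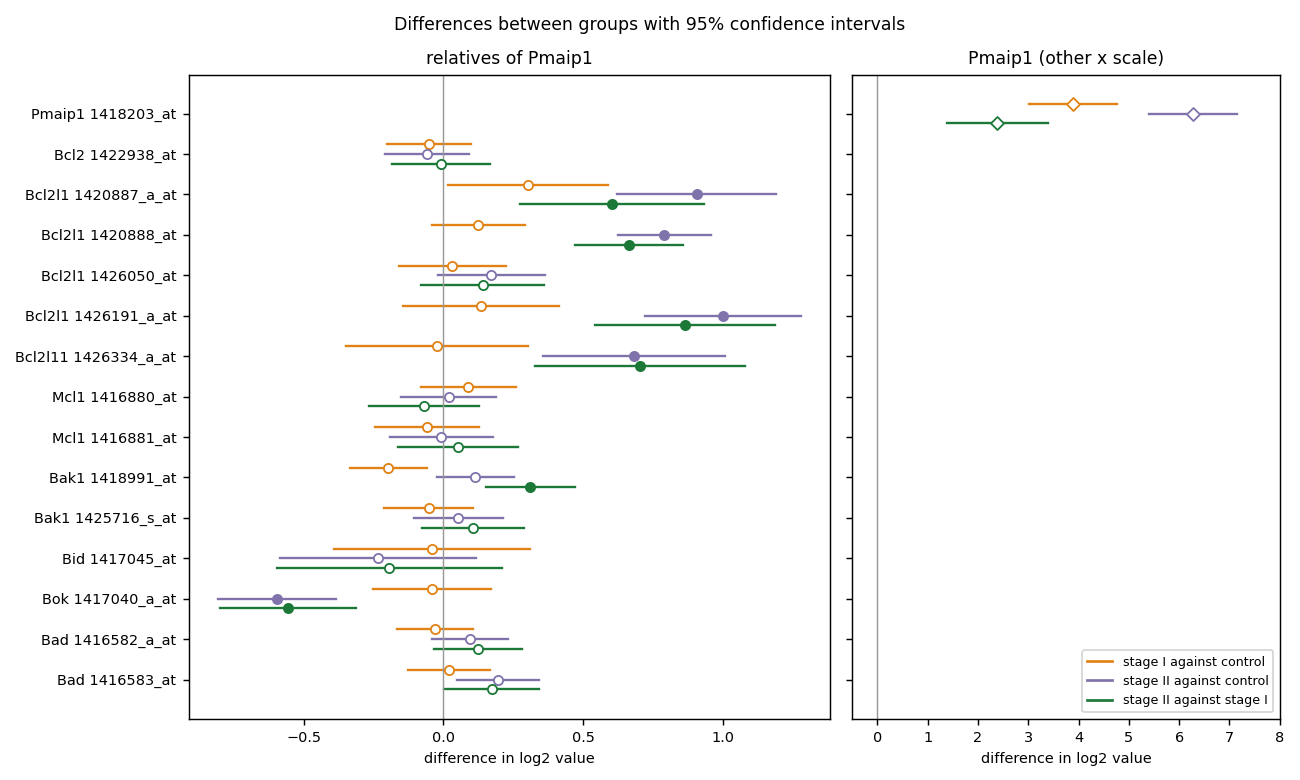
Difference in log2 value between groups for each probe set, with its 95% confidence interval from the limma fit; colours give the comparison and filled circles an adjusted p under 0.05. Pmaip1 (right, open diamonds, not tested) has its own x scale and lies at 3.89, 6.27 and 2.39, while the relatives (left) lie between -0.60 and 1.00.

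Mcl1, the survival gene whose protein Noxa binds, was measured by 2 probe sets, and neither passed in any comparison. Probe set 1416880_at lay between 10.51 and 10.72 in controls, with a median of 10.66. It lay at 10.54, 10.79 and 10.84 in stage I and at 10.73, 10.67 and 10.56 in stage II, so the 3 groups overlapped. Its stage II difference from control was 0.02, with a 95% interval from -0.15 to 0.19, and that of 1416881_at was -0.01, from -0.19 to 0.18. In stage I the differences were 0.09 (interval -0.08 to 0.26) and -0.06 (-0.24 to 0.13). The intervals thus leave room for a ratio of stage II to control in Mcl1 transcript from 0.875 to 1.14. Pmaip1 differed by 77.4-fold on the same arrays. Mcl-1 protein was not measured.

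Bcl2, the founding survival gene of the family, had 1 probe set used here (1422938_at) and likewise passed nowhere. It ran from 6.88 to 7.15 in controls, with a median of 6.95, and lay at 6.95, 6.85 and 7.01 in stage I and at 7.02, 6.87 and 6.89 in stage II. The stage II difference from control was -0.06 (95% interval -0.21 to 0.09).

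Bcl2l1, which encodes Bcl-xL, rose in stage II by 3 of its 4 probe sets. Probe set 1420888_at lay between 8.82 and 9.11 in controls, with a median of 8.99, and at 9.19, 9.07 and 9.04 in stage I. In stage II it lay at 9.73, 9.68 and 9.89, above every control and every stage I array, while stage I overlapped with controls. Stage II exceeded control by 0.79 ± 0.08 (SE), or 1.73-fold (adjusted p = 2.14e-05), and stage I by 0.67 ± 0.09 (adjusted p = 0.000911).

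Probe set 1426191_a_at of Bcl2l1 lay between 5.72 and 6.17 in controls and at 6.24, 6.01 and 6.08 in stage I. It lay at 6.79, 6.81 and 7.32 in stage II. This was 2.00-fold higher than control (log2 1.00 ± 0.13 SE, adjusted p = 0.000205) and 1.82-fold higher than stage I (adjusted p = 0.00419). Replicate 3 was the highest stage II array for both of these probe sets, and both rises held without it and without any other single array.

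Probe set 1420887_a_at of Bcl2l1 lay between 6.50 and 6.92 in controls and at 7.03, 7.10 and 7.01 in stage I. In stage II it lay at 7.66, 7.30 and 8.00. All stage I arrays were above all controls, but the difference of 0.30 ± 0.13 (SE) did not pass (adjusted p = 0.767, unadjusted p = 0.0394). Stage II exceeded control by 0.91 ± 0.13 (1.88-fold, adjusted p = 0.000533). It exceeded stage I by 0.60 ± 0.15 (adjusted p = 0.0258), and this call ended without any 1 of the stage I arrays or without stage II replicate 1 or 3 (adjusted p from 0.0579 to 0.0957).

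The probe sets of Bcl2l1 disagreed in 1 case. The dimmest, 1426050_at, lay between 3.67 and 3.99 in controls and at 4.08, 4.06 and 3.80 in stage II, and did not pass (log2 difference 0.17, interval -0.02 to 0.36, adjusted p = 0.202). With the probe sets of the gene averaged, Bcl2l1 was 0.72 higher in stage II than in control (adjusted p = 5.22e-05). Which transcripts of the gene each probe set reads was not analysed here.

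Among the BH3-only relatives, Bcl2l11 rose in stage II. Bcl2l11 encodes Bim, a strong inducer of apoptosis. Its probe set 1426334_a_at lay between 5.61 and 6.18 in controls, with a median of 6.03, and at 6.04, 5.61 and 6.13 in stage I. It lay at 6.58, 6.56 and 6.75 in stage II. Every stage II array was above every other array, while stage I and control shared 1 range.

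Stage II exceeded control by 0.68 ± 0.15 (SE) in Bcl2l11, or 1.60-fold (adjusted p = 0.00782), and stage I by 0.70 ± 0.17 (1.63-fold, adjusted p = 0.0235). The second call ended without stage I replicate 2 (log2 0.54, adjusted p = 0.0929), stage II replicate 1 (adjusted p = 0.0502) or stage II replicate 3 (adjusted p = 0.0942). Stage I differed from control by -0.02, with an interval from -0.35 to 0.30.

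Bid, which links death receptors to mitochondria after cleavage by caspase-8, did not pass in any comparison. Its probe set 1417045_at lay at 7.43, 7.87, 8.07, 7.33, 7.85 and 7.91 in control replicates 1 to 6. It lay at 7.68, 7.73 and 7.70 in stage I and at 7.27, 7.82 and 7.43 in stage II. Control replicates 1 and 4 were the low controls, as they were for Bcl2l11. The luteal cell marker list had its highest control means on those 2 arrays, at 11.00 and 11.29 against 9.75 to 10.23 on the other controls. The luteal list mean ran from 9.49 to 10.92 in stage I and from 10.41 to 11.41 in stage II. It was highest in stage II replicate 1, which had the lowest Bid value and was kept. The list was mixed in stage II. Its 2 probe sets of Parm1 had means of 7.45 and 8.92 in controls and of 10.56 and 11.98 in stage II. Akr1c18, Ptgfr and Scarb1 had lower means in stage II (9.66, 10.77 and 11.68) than in controls (12.23, 11.34 and 11.97). The part of luteal tissue in these levels was not tested. Against all controls the stage II difference of Bid was -0.23 ± 0.16 (SE, adjusted p = 0.352), and without those 2 controls it was -0.42 (adjusted p = 0.0257). Leaving out the 2 lowest controls had to deepen the difference, and the omission was chosen with these data known. The second value is thus no independent evidence of a fall.

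Bad, whose protein is silenced by survival kinases through phosphorylation, did not pass in any comparison. Probe set 1416583_at lay between 8.32 and 8.52 in controls and at 8.41, 8.48 and 8.47 in stage I. It lay at 8.58, 8.52 and 8.78 in stage II, just above the highest control. The difference of 0.19 ± 0.07 (SE) from control did not pass (adjusted p = 0.0638), but it did without stage II replicate 2 (log2 0.25, adjusted p = 0.0396). Probe set 1416582_a_at differed by 0.10 (interval -0.04 to 0.23).

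Of the pore-forming members measured, Bok fell in stage II. Its probe set 1417040_a_at lay between 9.53 and 9.79 in controls, with a median of 9.66, and at 9.73, 9.62 and 9.49 in stage I. It lay at 9.14, 9.23 and 8.78 in stage II. All stage II arrays were below all others, with replicate 3 the lowest. Stage II was 0.60 ± 0.10 (SE) below control on the log2 scale, with a ratio of 0.662 (adjusted p = 0.00126), and had a ratio of 0.68 to stage I (adjusted p = 0.00974). Both calls held without any single array, and the first held under all 22 alternatives.

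Markers of several ovarian cell types were lower on the stage II arrays too, beside 10.1% of all probe sets called lower. Over all 16376 probe sets, the 1660 lower calls became 579 without stage II replicate 3. Of 6 granulosa probe sets 6 fell in stage II against control, and 3 without stage II replicate 3. The mean log2 level of the granulosa list ran from 10.81 to 11.47 in controls, from 11.11 to 11.49 in stage I and from 9.59 to 10.69 in stage II. Of 8 oocyte probe sets 7 fell, and 5 without that array, and the oocyte list ran from 7.75 to 8.17 in controls, from 7.78 to 7.97 in stage I and from 6.81 to 7.47 in stage II. Smooth muscle markers fell by 6 of 8 probe sets (5 without that array), with a list mean from 8.50 to 8.58 in controls, from 8.33 to 8.40 in stage I and from 7.93 to 8.06 in stage II. Theca and interstitial markers fell by 4 of 7 (3 without that array), with a list mean from 10.02 to 10.40 in controls, from 9.94 to 10.14 in stage I and from 8.99 to 9.98 in stage II. Stage II replicate 3 was the lowest array for all 4 lists. The lowest value of the whole table was 2.69 and no background level was measured, so these levels cannot show whether a cell type was absent. The part of these cell types in the fall of Bok was not tested.

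Bak1, the other pore former measured, differed between the stages by 1 of its 2 probe sets. Probe set 1418991_at lay between 6.24 and 6.35 in controls. It lay at 6.08, 5.99 and 6.21 in stage I and at 6.32, 6.38 and 6.51 in stage II. Stage I lay below all controls by 0.20 ± 0.06 (SE) without passing (adjusted p = 0.566, unadjusted p = 0.00892), and stage II overlapped with controls. Stage II exceeded stage I by 0.31 ± 0.07 (1.24-fold, adjusted p = 0.0201). That call ended without stage I replicate 2 (log2 0.26, adjusted p = 0.0849) or stage II replicate 3 (log2 0.26, adjusted p = 0.0794). Probe set 1425716_s_at differed between the stages by 0.11 and did not pass (adjusted p = 0.475).

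The starts of the relatives were searched for 3 motifs, and the windows of 2 genes that moved in stage II are shown because they hold a steroid receptor or a forkhead match. RefSeq windows of GRCm38.p6, from 250 bases before to 50 after a gene start, were found for 8 of 8 measured relatives, 12 windows in all. The motifs, searched on both strands, were TGTTCT, the core hexamer bound by steroid receptors such as the progesterone receptor, GTAAACA, a core of FoxO factors, and GGGCGG, the GC box of Sp1. In the lines below capitals mark matches of any of the 3 on either strand.
Bok, chr1:93685325-93685624, plus strand: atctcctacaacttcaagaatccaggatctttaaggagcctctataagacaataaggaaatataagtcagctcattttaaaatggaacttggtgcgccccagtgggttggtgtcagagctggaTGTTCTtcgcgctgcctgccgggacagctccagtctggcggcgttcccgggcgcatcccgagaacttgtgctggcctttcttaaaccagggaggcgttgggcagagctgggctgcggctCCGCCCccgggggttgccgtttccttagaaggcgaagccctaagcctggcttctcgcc
Bcl2l11, chr2:128125788-128126087, plus strand: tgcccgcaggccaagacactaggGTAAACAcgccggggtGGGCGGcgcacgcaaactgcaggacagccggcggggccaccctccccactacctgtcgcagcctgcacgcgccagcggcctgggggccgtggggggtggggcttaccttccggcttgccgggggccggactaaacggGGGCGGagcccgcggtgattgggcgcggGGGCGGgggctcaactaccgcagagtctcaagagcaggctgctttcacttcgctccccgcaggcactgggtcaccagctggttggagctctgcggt
The window of Bok held TGTTCT 1 time, 127 bases before the start, and the window of Bcl2l11 held GTAAACA 1 time, 227 bases before the start. No other window of the relatives held either motif, and the 3 windows of Bcl2l1 held none of the 3. Over all 32851 windows of the table, 19% held TGTTCT, 3.65% held GTAAACA and 35.7% held GGGCGG, which 7 of the 12 windows of the relatives held. These are matches of letters, not measured sites.

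Beyond the listed members, 6 lists of related genes gave 81 probe sets of 54 genes. In stage I against control 0 of them passed limma's threshold. At an unadjusted p under 0.05 there were 7 of the 81, beside 1020 of all 16376 probe sets. In stage II against control 22 passed (27.2%), 13 higher and 9 lower, beside 19.4% of all probe sets. Without stage II replicate 3 these counts were 9 higher and 1 lower, beside 9.69% of all. In stage II against stage I 16 passed (19.8%), 8 in each direction, beside 10.9% of all. There 7 passed without stage II replicate 3 (6 higher, 1 lower), 6 without stage I replicate 2 (5 higher, 1 lower) and 9 without stage I replicate 3 (5 higher, 4 lower). The calls over all 16376 probe sets fell as well, from 1789 to 791, 801 and 785 in these 3 fits.

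The lists of other BH3 and survival genes gave 1 call each in stage II against control, shares of the size of those over all probe sets. Of 8 probe sets of other BH3-only and death relatives 1 was higher in stage II than in control (median 0.02), beside 9.25% of all. It read Bnip3, a hypoxia-induced mitochondrial protein of mitophagy and cell death, at 1.37-fold (log2 0.45 ± 0.08 SE, adjusted p = 0.0031). Bbc3, which encodes Puma, the other well-known BH3-only target of p53, differed from control by 0.07 in stage II (interval -0.15 to 0.28). The list of other survival genes also holds Bag1, Bag3 and Bag4, which lie outside the Bcl2 family. It holds Bcl2l13 too, whose survival role is not established. The list of BH3-only and death relatives holds Bcl2l12, whose death role is not established either. Of the 9 probe sets of the survival list 1 was lower (median -0.07), beside 10.1% of all. It read Bcl2l10, a survival gene of oocytes, at a ratio of 0.628 (log2 -0.67 ± 0.15 SE, adjusted p = 0.00993), and this call was lost on leaving out stage II replicate 3. Bcl2l2, which encodes the survival protein Bcl-w, did not pass by any of its 3 probe sets in stage II against control. Bcl2l13, a further family member, was 1.29-fold higher in stage II than in stage I by probe set 1424406_at (adjusted p = 0.0145), and did not pass by 1429539_at (log2 -0.24, adjusted p = 0.0571). The first call was lost on leaving out replicate 2 of stage I or replicate 3 of stage II.

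Casp8 and the caspase inhibitors Birc2 and Birc3 were higher in stage II. Of 19 probe sets for mitochondrial release, caspases and their inhibitors, 4 rose (9.25% of all probe sets) and 3 fell (10.1% of all) against control, with a median of 0.08. Casp8, the initiator caspase of death receptors, lay between 8.90 and 9.09 in controls, at 9.26, 9.06 and 9.07 in stage I and at 9.55, 9.50 and 10.06 in stage II, or 1.65-fold above control (log2 0.72 ± 0.11 SE, adjusted p = 0.000721). The caspase inhibitor Birc2 lay between 9.91 and 10.07 in controls, at 10.19, 10.21 and 10.07 in stage I and at 10.54, 10.65 and 11.30 in stage II (1.78-fold, adjusted p = 0.000948). For both genes every stage II array was above every control.

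Its relative Birc3 rose 1.58-fold by probe set 1421392_a_at (adjusted p = 0.000999) but had a log2 difference of 0.14 by the dimmer 1425223_at (adjusted p = 0.373). Endog, a mitochondrial nuclease, rose 1.51-fold (adjusted p = 0.00483). Parp1, a DNA repair enzyme that caspases cleave, fell by 0.32 and 0.34 on the log2 scale by its 2 probe sets (adjusted p = 0.00534 and 0.0109), and Dffb, a caspase-activated nuclease, fell by 0.30 (adjusted p = 0.049). The call of Parp1 probe set 1422503_s_at ended without stage II replicate 3. The Dffb call ended under 10 of the alternatives, among them the fits without control replicates 1, 2, 4 or 6, stage I replicate 2 or stage II replicates 1 or 3, with an adjusted p of at most 0.179. Casp9, the caspase of the apoptosome, differed by 0.015 (interval -0.12 to 0.15).

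Of 7 macrophage marker probe sets 6 rose in stage II, beside 9.25% of all, and 2 without stage II replicate 3. Over all 16376 probe sets, the 1514 higher calls became 1008 without that array. The mean log2 level of the macrophage list ran from 9.20 to 9.42 in controls, from 9.38 to 10.11 in stage I and from 9.90 to 10.19 in stage II. Epithelial markers gave 2 risen of 5 probe sets, both of the keratin Krt8. Krt19 had a mean of 8.06 in controls and 9.02 in stage II, in the same direction, without passing. Krt7 and Epcam had stage II differences from control of -0.40 and -0.67 that did not pass (adjusted p = 0.501 and 0.154). Without control replicates 1 and 4 there were 2 calls in each direction, but those arrays held the lowest control values of Krt7 and Epcam. With Krt8 in it, the list mean ran from 7.68 to 9.08 in controls, from 8.75 to 9.27 in stage I and from 9.63 to 10.15 in stage II. The part of these cell types in the levels of Pmaip1 and its relatives was not tested.

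Death receptors and their adaptors gave 1 risen of 12 probe sets, a share of the size of the 9.25% of all, for Cradd, an adaptor of caspase-2 (log2 0.31, adjusted p = 0.0429). That call ended under 9 of the alternatives, among them the fits without control replicates 1, 2, 5 or 6, stage I replicate 3 or stage II replicates 1 or 3, with an adjusted p of at most 0.213.

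Among 25 probe sets of known inducers of Pmaip1 and regulators of Mcl-1 stability, 5 rose (9.25% of all probe sets) and 5 fell (10.1% of all) in stage II against control, with a median of 0.07. The counts were 2 and 0 without stage II replicate 3, and 2 and 3 without stage II replicate 1. Over all 16376 probe sets, 1514 higher and 1660 lower became 1008 and 579 without replicate 3, and 1231 and 1167 without replicate 1. Mdm2, the ubiquitin ligase of p53 and itself a p53 target, rose 2.43-fold and 3.07-fold by its 2 probe sets (adjusted p = 4.17e-05 and 0.000145). Both probe sets of Mdm2 passed without stage II replicate 3 as well. Foxo1, a forkhead factor that can induce Bcl2l11, fell by 0.79, 0.73 and 0.74 on the log2 scale by its 3 probe sets (adjusted p from 0.00834 to 0.0138). With stage II replicate 3 left out, none of the 3 passed (adjusted p up to 0.0712). Of the ligases of Mcl-1, Huwe1 had log2 differences of -0.20 and -0.22 (adjusted p = 0.0281 and 0.0627) and Fbxw7 fell by 0.43 (adjusted p = 0.0355). The Huwe1 call ended without control replicates 2 or 6 or stage II replicates 1 or 3, and that of Fbxw7 without control replicates 1, 3, 5 or 6 or stage II replicates 1 or 3, with adjusted p-values of at most 0.204 and 0.21.

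The same list held E2f1, a cell-cycle factor that rose by 0.30 and 0.34, and Hif1a, the hypoxia factor that rose by 0.36 by 1 of its 3 probe sets. These 3 calls ended without stage II replicate 1 or 3. The p53 target list, which also holds Mdm2, gave 4 risen of 10 probe sets, beside 9.25% of all, and a median of 0.45, with 4 also without stage II replicate 3. Calls among p53 targets were known when the list was drawn up, so its count is not independent evidence. Ccng1, which encodes cyclin G1, rose 1.93-fold (adjusted p = 1.38e-06) and Perp, a membrane protein of p53-dependent apoptosis, rose 1.37-fold (adjusted p = 0.00544). Cdkn1a, the cell-cycle inhibitor p21, had log2 differences of 0.50 and 0.44 that did not pass (adjusted p = 0.363 and 0.413).

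**Figure D4:**
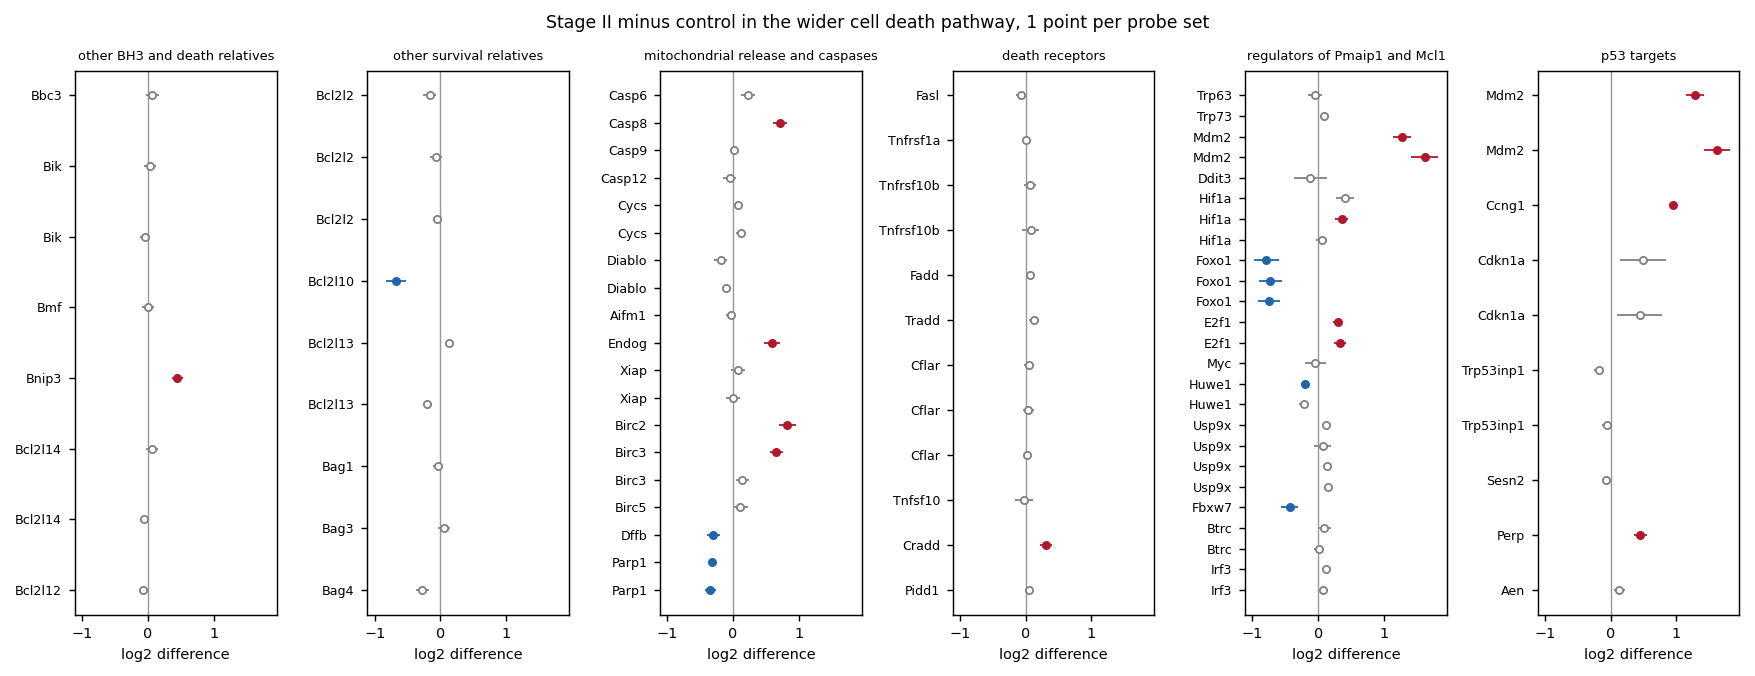
Difference in log2 value of stage II minus control (x axis) for each probe set of the 6 related lists, with the SE as a bar; red points rose and blue points fell at an adjusted p under 0.05, and grey open points did not pass. The 2 probe sets of Mdm2 lie farthest to the right, at 1.28 and 1.62, and Foxo1 and Bcl2l10 farthest to the left.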

How the data were processed

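Log2 expression values, 1 per probe set and array, were deposited by the authors in the series' value table; how they were summarised and normalized is not given in the sources used here. They exceed 11.1, the largest natural log of a 16-bit intensity, which fixes the log base as 2. Per the labels' protocols, total RNA was extracted with Trizol, column-purified and labelled with biotin. The platform annotation paired 14674 probe sets with 1 symbol, 427 with several and 1275 with none; a table of RefSeq genes changed 0 symbols.

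All 16376 probe sets entered 1 linear model with a mean per group, in limma 3.58.1 under R 4.3.3 (lmFit, eBayes) over the 12 arrays, with 9 residual and 3.29 prior degrees of freedom. Benjamini-Hochberg adjustment covered all probe sets, with 0.05 as threshold; SE and 95% intervals come from the model, and the number of arrays limits precision. Scripts were tested on simulated data. The members, the lists and the omission of control replicates 1 and 4 were chosen with earlier results of these data known. Named were all member probe sets, list genes past the threshold (up to 6 a list), some listed relatives, and the 6 genes nearest to Pmaip1 (without predicted genes or clone names). The alternatives were 22 settings: 2 other normalizations, a filter on the dimmest 25 percent, 1 probe set or the mean per gene, only the groups compared, array weights, another variance prior, a replicate block, and omitted arrays. Counts in the wider and marker lists under these settings were added after seeing the data.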

Additional observations from a re-analysis of the deposited data

Results flagged for a closer look

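A control array stood apart for 1 of the 15 member probe sets examined. Mcl1 probe set 1416881_at was at 9.43 in control replicate 3, with the nearest control at 9.73, a gap that was 0.764 of the whole range of the 6 controls. Chance flags about 1 in 20 such groups. The other Mcl1 probe set, 1416880_at, was at 10.5 in that array, within the range of the other controls.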

How the results depend on the processing

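Of 42 pairs of relative probe set and comparison, 28 passed in no setting, and no sign turned where a call was made. Pmaip1 lay at 3.25 to 4.31 for stage I and 6.06 to 6.43 for stage II over control, and 1.96 to 3.02 between stages. This is a description, since the gene was chosen for these differences. Relatives called in stage I stayed at 0 in every setting. In stage II against control 5 of 14 became 3 of 8 genes with 1 probe set per gene or with the probe sets of a gene averaged, which test fewer rows, and 5 to 6 with each array left out. The fits per gene called 2302 and 2250 of all 10949 genes in that comparison. In stage II against stage I 6 of 14 became 3 of 8 genes with the mean of probe sets, 2 of 14 in fits of only the 2 groups compared, and 3 to 6 with each array left out, lowest without stage I replicate 2 or stage II replicate 3. The mean of probe sets called 1292 of all 10949 genes between stages. The replicate block gave 0, 5 and 4 in the 3 comparisons, and the Bcl2l1 (1420887_a_at) and Bak1 calls between stages ended with it (adjusted p = 0.0755 and 0.0609). With it the 6 related lists held 10 calls in stage II against control; the calls of Bcl2l10, Endog, both Parp1 probe sets, Dffb, Cradd, Huwe1, Fbxw7, E2f1, Hif1a and Perp ended (the Fbxw7 call also in the fit of only the 2 groups), and granulosa calls numbered 1 of 6 and macrophage calls 2 of 7. Of all 16376 probe sets, the block called 971 higher and 530 lower in stage II against control. Same-numbered arrays shared only a number, with correlations of their deviations from -0.15 to 0.21, 3 of 9 over 0.1. Array weights added Bid and Bcl2l1 probe set 1426050_at in stage II against control (7 in all), and the filter on dim probe sets added Bad (adjusted p = 0.0495). In fits of only the groups compared, Bok (adjusted p = 0.0674) and Bcl2l11 (0.0504) did not pass between stages. Bcl2l1 probe set 1420887_a_at and Bak1 probe set 1418991_at did not pass there either. The call of Bcl2l13 probe set 1424406_at between stages also ended there and with the replicate block (adjusted p of at most 0.0739).

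Over all probe sets, 32 calls in stage I became 8 with the block, 21 with either rule per gene and 19 without control replicates 1 and 4. The 3174 calls of stage II against control became 1501 with the block and 1587 without stage II replicate 3. The 1789 calls between stages became 559 with only those groups, 807 with the block, 2956 with array weights, and 801 or 785 without replicate 2 or 3 of stage I, or 791 without replicate 3 of stage II. The cause was not tested. Without a measured background, the low control level of Pmaip1 limits its fold.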
